A study of Mus musculus with 4 samples.

Results

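The genes for the proteins of the cytosolic ribosome were examined in mature dendritic cells (maDC) that lack the m6A methyltransferase Mettl3. Members were the protein-coding genes listed in both deposited tables whose symbol starts with Rpl or Rps followed by a digit, with Rplp0, Rplp1, Rplp2 and Rpsa. Rps6k kinase genes and symbols with -ps were left out. This gave 85 of the 11822 genes shared by the tables, 51 of the large subunit and 34 of the small subunit. All 85 passed the filter on low values, a mean of 1 RPKM or more over the libraries, as did 11757 genes in all. RPKM is the read number divided by gene length and by library size. Of the 85, 77 are the standard ribosomal proteins. The other 8 are the paralogs Rpl7l1, Rpl22l1, Rpl36al, Rpl39l and Rps27l, the retrocopies Rpl37rt and Rps27rt, and Rps19bp1, which encodes a protein that binds Rps19 and is not itself counted among the ribosomal proteins. A further gene that meets the naming rule, Rpl3l, the muscle paralog of Rpl3, was listed only in the first table, at 0.241 RPKM in the Mettl3KO library and 0.144 RPKM in the Mettl3WT library.

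Each ribosome joins a small subunit, which reads the mRNA, to a large subunit, which forms the peptide bond, and a cell needs the proteins of both in matched amounts. Their mRNAs are among the most abundant of any cell, are short, and mostly begin with a run of pyrimidines, the 5′ terminal oligopyrimidine (TOP) tract, through which mTOR signalling and Larp1 control their translation. In dendritic cells maturation brings a burst of protein synthesis that later declines.

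Mettl3KO cells came from Mettl3 fl/fl mice carrying Cre under the CD11c promoter, which removes exons of Mettl3 in CD11c-expressing cells. Mettl3WT cells came from littermates with the floxed gene and, as the study names them, no Cre, so an effect of the transgene cannot be told apart from loss of Mettl3. Both groups were C57BL/6 bone marrow cells of mice aged 6 weeks, grown in 10 ng/ml GM-CSF and 1 ng/ml IL-4, bound to CD11c beads for selection, and exposed for 24 h to LPS at 100 ng/ml. There were 2 libraries of polyadenylated RNA in each group, numbered 1 and 2. The study describes pairs of knockout and wild-type littermates, and each table holds the libraries of 1 number, here called pair 1 and pair 2.

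Low RPKM values placed the size of the 4 libraries between 31200000 and 35530000 reads. The tables were normalised separately, so levels are compared within a pair. At the level of the whole gene, Mettl3 had 4.59 and 4.39 RPKM in Mettl3KO 1 and 2, against 5.31 and 5.10 RPKM in Mettl3WT 1 and 2, a value that cannot show the removed exons. The 2 libraries of pair 1 also differed in sex: Xist had 37.8 RPKM in Mettl3KO 1 and 0.0502 RPKM in Mettl3WT 1, and the Y-linked Ddx3y had 0.0243 and 29.1 RPKM in the same order. None of these sex-linked genes was listed in the second table, which holds only genes above 1 RPKM in both libraries. Libraries of different sex in pair 2 would leave these genes out in the same way. Libraries that were both female would list Xist at the level of pair 1, and libraries that were both male would list Ddx3y. Sex thus probably differs within pair 2 too. Within pair 1, and probably within pair 2, sex cannot be told apart from genotype. The library Mettl3KO 2 stood apart from the other 3. Transcripts of the mitochondrial genome took 3.24% of its RPKM summed over the genes in both tables, against 1.36% in Mettl3WT 2. The share was 1.01% in Mettl3KO 1 and 1.24% in Mettl3WT 1. These were 22 tRNA and rRNA genes, and no mitochondrial mRNA was among them. All 12 dendritic cell markers were listed, with summed levels of 10728 and 7759 RPKM in Mettl3KO 1 and 2, against 12591 and 12857 RPKM in Mettl3WT 1 and 2. Their median log2 ratio in pair 2 was -0.65, and 9 of the 12 were lower in both pairs, against 30.8% of all genes. Itgax, which encodes CD11c, had 9.66 and 50.98 RPKM in the Mettl3KO libraries, against 12.6 and 17.2 RPKM in the Mettl3WT libraries. It was the only 1 of the 12 that was higher in Mettl3KO 2 than in Mettl3WT 2. Of 18 granulocyte markers 8 were listed in both tables, summing to 7408 and 4795 RPKM against 4432 and 6084 RPKM. A further 9 were listed only in the first table, summing to 831 RPKM in Mettl3KO 1 and 231 RPKM in Mettl3WT 1. S100a9 had 2843 and 2.57 RPKM in Mettl3KO 1 and 2, against 1237 and 1844 RPKM in Mettl3WT 1 and 2. Other markers of this list went the other way in pair 2, such as Chil3 with 1028 RPKM in Mettl3KO 2 and 238 RPKM in Mettl3WT 2, and Lcn2 with 3510 and 2687 RPKM. Without S100a9 the 7 others listed in both tables summed to 4565 and 4793 RPKM in Mettl3KO 1 and 2, against 3194 and 4241 RPKM in Mettl3WT 1 and 2. The direction of the sum in pair 2 thus rested on that gene. Gene by gene, 3 of the 8 were higher in Mettl3KO 2, and the median log2 ratio in pair 2 was -0.92. Among the lower ones, S100a8 had 143 RPKM in Mettl3KO 2 and 1129 RPKM in Mettl3WT 2, and Camp had 4.33 and 58.4 RPKM. Of 16 monocyte and macrophage marker symbols, of which Adgre1 and Emr1 name the same gene, 14 were listed in both tables. They summed to 5472 and 16617 RPKM against 4565 and 11797 RPKM. Most of each sum was Lyz2, with 4343 and 12729 RPKM against 3361 and 9144 RPKM. Gene by gene, 9 of the 14 were higher in Mettl3KO 2, against 41.7% of all genes. In both pairs 5 were higher and 2 lower, against 19.1% and 30.8% of all genes. T cell markers were listed in both tables for 1 of 9 genes, NK cell markers for 1 of 6, and B cell (7) and erythroid (6) markers for 0. Hba-a2, an erythroid marker, was listed at 0 in a library. In these bulk samples a change in the mix of cells and a change in RNA per cell cannot be told apart, and the part of the marker and mitochondrial differences in the results below was not tested.

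The letters CTTTC, a stretch of pyrimidines, can be seen in the sequence around the annotated start of some members. The 30-base windows below run from 15 bases before the start to 15 bases from it, 5′ to 3′ on the strand of the gene, with the letters CTTTC in capitals. They are shown because they place these letters at base 16, the start, or within some bases of it in genes of both subunits that the results name. Bases at the start of Rps27 also recur in its retrocopy Rps27rt. In Rps26 and Rpl39l base 16 is g, so no run of pyrimidines begins at the annotated start there. They come from RefSeq on GRCm38.p6, the assembly also called mm10: Rps27 at chr3:90213634-90213663 (minus strand), Rps27rt at chr9:114982725-114982754 (minus), Rplp2 at chr7:141447636-141447665 (plus), Rpl7a at chr2:26910792-26910821 (plus), Rps26 at chr10:128626492-128626521 (minus) and Rpl39l at chr16:10170213-10170242 (plus).
Rps27: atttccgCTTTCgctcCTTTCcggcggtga
Rps27rt: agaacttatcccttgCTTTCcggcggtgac
Rplp2: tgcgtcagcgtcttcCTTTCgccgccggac
Rpl7a: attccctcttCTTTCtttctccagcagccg
Rps26: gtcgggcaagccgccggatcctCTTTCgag
Rpl39l: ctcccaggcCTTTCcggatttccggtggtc

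A promoter sequence was matched by symbol for 65 of the 85 members. In the 30-base window, 18 of these 65 (27.7%) held CTTTC on the strand of the gene, against 352 of 8107 other tested genes (4.34%) and 1286 of all 27025 genes with a promoter (4.76%). The motif on the opposite strand, GAAAG, was in 3 members (4.62%) and in 4.21% of all promoters. In the 100 bases centred on the start, 34 members (52.3%) held CTTTC on their own strand and 8 (12.3%) on the other, against 14.6% and 13.8% of all promoters. A match describes the letters and is not evidence of a working tract. The 18 members with the motif in the 30-base window had a median log2 ratio of 0.05 in pair 1 and 0.48 in pair 2. For the 47 without it the medians were 0.04 and 0.40.

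Ribosomal protein transcripts were abundant in every library. Of the RPKM summed over the 11822 genes in both tables, members took 7.37% in Mettl3KO 1 and 7.24% in Mettl3WT 1. They took 11.1% in Mettl3KO 2 and 8.77% in Mettl3WT 2. The median member had 382.5 and 383.8 RPKM in the Mettl3KO and Mettl3WT libraries of pair 1, and 699.0 and 530.9 RPKM in those of pair 2. In all 4 libraries 75 of the 85 members were at 100 RPKM or more. The subunits stood in the same balance throughout: the summed RPKM of large-subunit genes was 1.34 and 1.33 times that of small-subunit genes in Mettl3KO 1 and Mettl3WT 1, and 1.35 and 1.39 times in Mettl3KO 2 and Mettl3WT 2. Levels on the log2(RPKM + 1) scale correlated across the 85 genes with r = 0.995 between the libraries of pair 1, 0.958 between those of pair 2 and 0.990 between both Mettl3WT libraries. The points share the length of each gene and the libraries, and genes are not replicates.

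**Figure D1:**
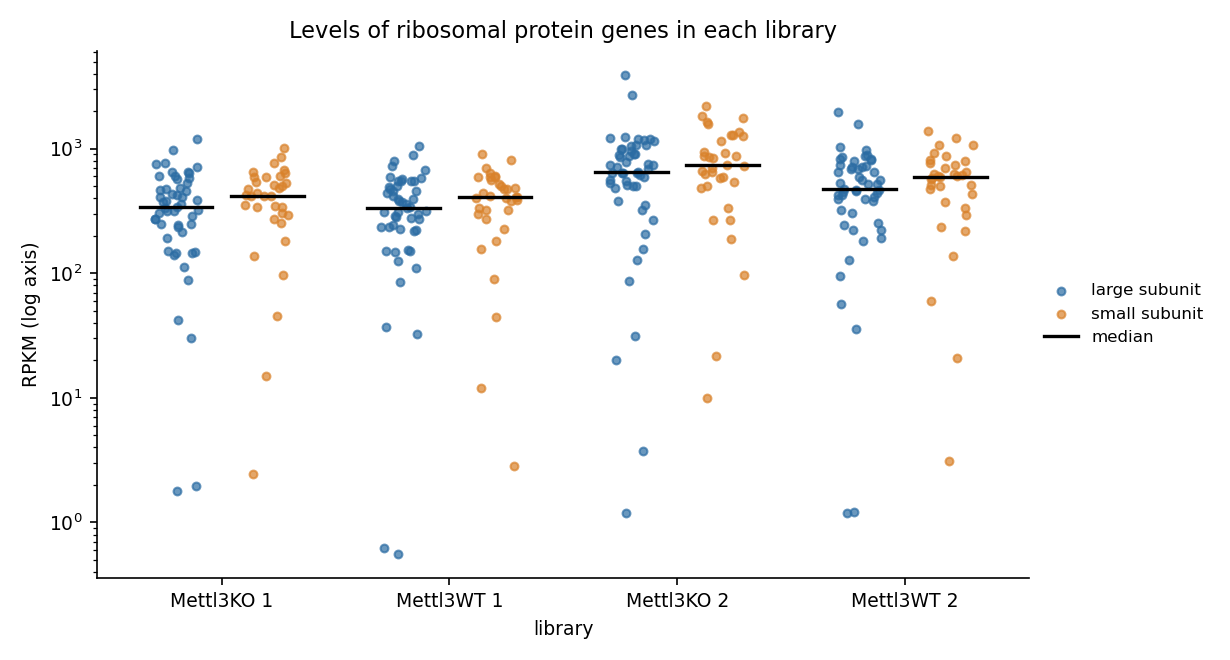
RPKM (log axis) of each ribosomal protein gene in the 4 libraries, with large-subunit genes in blue, small-subunit genes in orange and a bar at the median. Most genes lie above 100 RPKM, and Mettl3KO 2 is the library with the highest medians, 647 RPKM for the large and 736 RPKM for the small subunit.

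Rpl41, which encodes the shortest ribosomal protein, was the most abundant member in every library. It had 1206 and 3927 RPKM in Mettl3KO 1 and 2, against 1053 and 1981 RPKM in Mettl3WT 1 and 2. Rplp1, of the stalk, had 974 and 2684 RPKM against 894 and 1583 RPKM. Rpl10, which joins the large subunit late in its assembly, had 767 and 1174 RPKM against 791 and 1037 RPKM. In the small subunit Rps23, a protein of the decoding centre, had 1014 and 2195 RPKM in Mettl3KO 1 and 2, against 909 and 1213 RPKM in Mettl3WT 1 and 2. Rps26, which lies where the mRNA leaves the ribosome, had 857 and 1751 RPKM against 809 and 1378 RPKM. Rps29 had 681 and 1814 RPKM against 589 and 1064 RPKM. Each of these 6 genes was higher in Mettl3KO 2 than in Mettl3WT 2, and in pair 1 all but Rpl10 lay on the same side by a smaller margin. Near-identical copies were listed in both tables for Rplp1 and Rpl41, each at no more than 5.81 RPKM.

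The main question was whether members differed between Mettl3KO and Mettl3WT cells within each pair. In pair 1 they hardly did: the median log2 ratio of (RPKM + 1), Mettl3KO over Mettl3WT, was 0.05 (members from -0.34 to 0.92), and 79 of 85 lay within 0.25 of 0. In pair 2 the median was 0.46 (from -3.11 to 1.53) and 23 of 85 lay within 0.25. Over all 11757 genes the medians were -0.02 and -0.08. Members were higher in Mettl3KO in 56 of 85 cases in pair 1, where 46.7% of all genes were, and in 77 of 85 in pair 2, where 41.7% of all genes were. In pair 2 the count was 61 of 85 after quantile normalisation, a step that moved the median of all genes to 0.005. It was 79 of 85 after each library was centred on its median, a step that moved the median of all genes to 0.03. With these medians above 0, a larger share of all genes was higher than the 41.7% of the unscaled values. There was 1 library of each group in a pair, so these ratios compare libraries and carry no test of the genotype.

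By a fold of 1.5, 28 of 85 members (32.9%) were higher in Mettl3KO 2 than in Mettl3WT 2, against 6.46% of all genes, and 1 was lower, against 10.9%. In pair 1, 2 members were 1.5-fold higher (2.57% of all genes) and 0 were lower (1.86%). The 28 became 15 under quantile normalisation, where 8.59% of all genes passed, and 38 with libraries centred on their medians, where 9.33% did. In both pairs, 1 member, Rpl39l, was at least 1.5-fold higher (0.731% of all genes) and 0 were lower (0.476%). Members higher in both pairs by any amount numbered 53 of 85, against 19.1% of all genes, and members lower in both numbered 5, against 30.8%. Another 24 were lower in pair 1 and higher in pair 2, and 3 the reverse. Across the 85 genes the ratios of the pairs correlated with r = 0.12 (Spearman 0.29), where all 11757 genes gave r = 0.04 (Spearman -0.004). The pairs share no library.

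**Figure D2:**
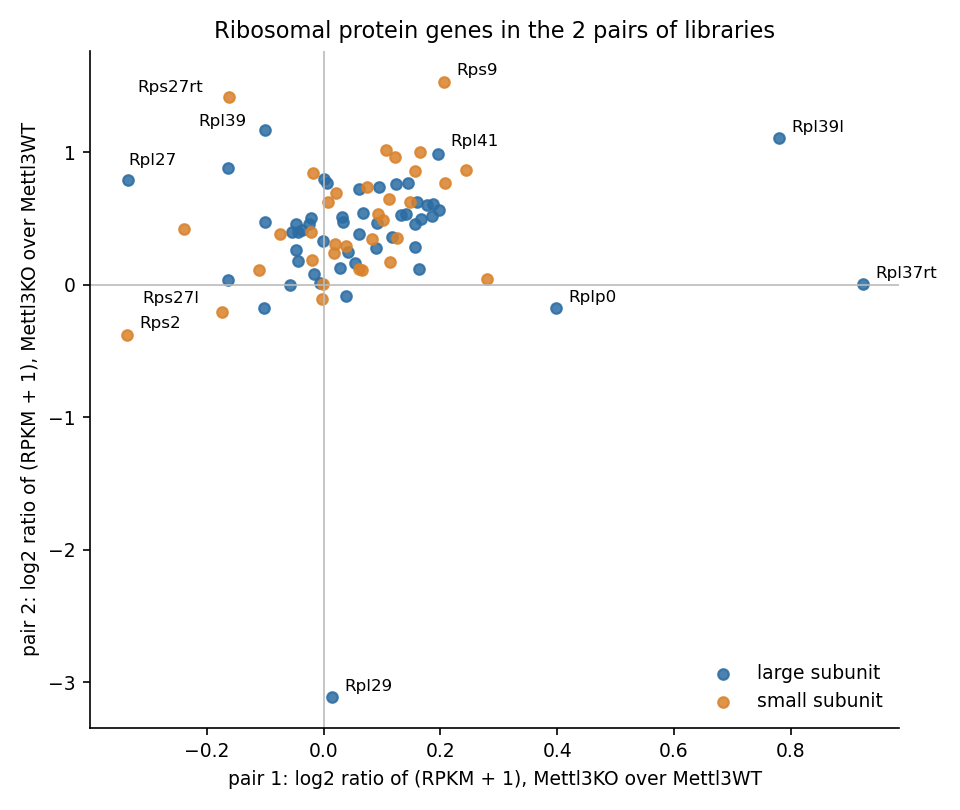
Log2 ratio of (RPKM + 1), Mettl3KO over Mettl3WT, of each of the 85 ribosomal protein genes in pair 1 (x axis) and pair 2 (y axis), coloured by subunit. Ratios in pair 1 lie mostly within 0.25 of 0, those in pair 2 mostly above 0 with a median of 0.46, and Rpl29 stands alone at -3.11.

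In the limma fit with the pair as a block and Benjamini-Hochberg adjustment over 11757 genes, 0 of 85 members were called higher (0.017% of all genes, 2 genes) and 0 were called lower (0.0255%, 3 genes). An unadjusted p under 0.05 was found for 3 of 85 members (3.53%), against 5.56% of all genes. The median fitted log2 change of the members was 0.24. Without Mettl3KO 2 it was -0.21 and without Mettl3WT 1 it was -0.01. These fits had no pair block and set libraries of different tables against each other. Their sign therefore includes the difference between the tables and does not show which library the family median rested on. Levels in both Mettl3KO libraries exceeded both Mettl3WT levels for 3 of 85 members (4.7% of all genes), and lay below both for 1 (10.2%). Mettl3WT 2 was above Mettl3WT 1 for 83 of 85 members, which is a difference between the tables. Separation or overlap of the groups over all libraries, here and for single genes below, includes that difference.

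The subunits were compared next. The median log2 ratio was 0.04 for the large and 0.06 for the small subunit in pair 1, and 0.46 and 0.41 in pair 2. The large-minus-small difference was therefore -0.02 in pair 1 and 0.05 in pair 2, small beside the standard deviation among members of a subunit in pair 2, which was 0.58 for the large and 0.43 for the small. It stayed between -0.03 and 0.003 in pair 1 and between 0.02 and 0.06 in pair 2 under the alternatives run. In pair 2, 14 of 51 large-subunit genes and 14 of 34 small-subunit genes were at least 1.5-fold higher in Mettl3KO 2 (27.5% and 41.2%, against 6.46% of all genes). In the limma fit 2 large-subunit genes and 1 small-subunit gene had an unadjusted p under 0.05 (3.92% and 2.94%, against 5.56% of all genes), and 0 of either were called.

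Within pair 2 the members were graded by length. The 11 members with a coding sequence of at most 300 bases had a median log2 ratio of 0.87, with none below 0.61. The medians were 0.50 for 31 members of 301 to 450 bases, 0.40 for 19 of 451 to 600, 0.23 for 20 of 601 to 900 and 0.04 for 3 above 900. In pair 1 the same classes had medians of 0.16, 0.09, 0.01, -0.03 and 0.16. Over the 84 members with a coding length, the Spearman correlation of length with the ratio was -0.63 in pair 2 and -0.36 in pair 1. These points share their libraries and the length scaling of RPKM.

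Other protein-coding genes followed the same order in pair 2, at lower values. Their medians in the classes were 0.29, 0.16, 0.05, -0.04 and -0.10, and those of the genes whose mean reached 100 RPKM were 0.37, 0.23, -0.03, -0.09 and -0.09. With the median of other protein-coding genes of its class taken from each member, the members' median was 0.34 in pair 2 and 0.03 in pair 1, and 73 of 84 members lay above their class in pair 2. This adjustment was chosen after the data were seen. Length moved with the members' ratios in this way, and its part in them was not tested.

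**Figure D3:**
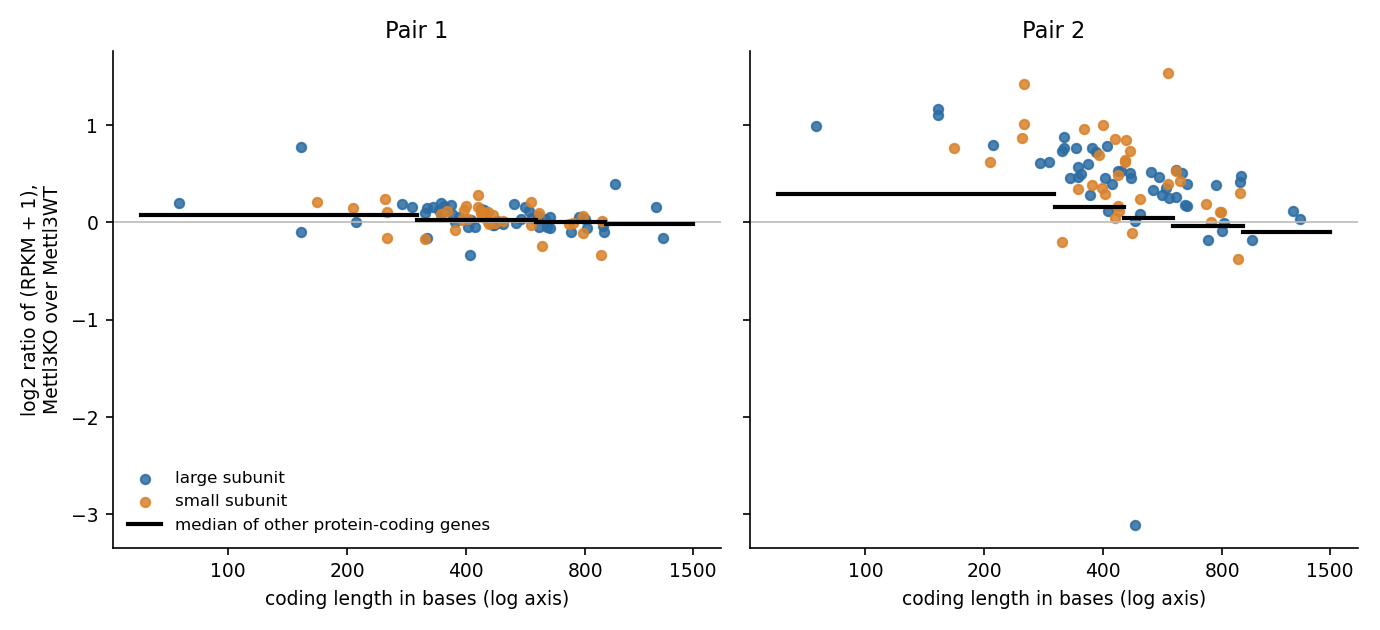
Log2 ratio of (RPKM + 1), Mettl3KO over Mettl3WT, against coding length in bases (log axis) for the 84 members with a coding length, pair 1 on the left and pair 2 on the right, with black bars at the median of other protein-coding genes of each length class. In pair 2 the shortest members lie near 1 and the longest near 0, and the black bars step down in the same direction by less.

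Of the single genes, Rps9, the counterpart of bacterial S4 in the body of the small subunit (chr7:3703954-3706897, plus strand), had the highest fitted change among small-subunit genes. It had 603 and 1258 RPKM in Mettl3KO 1 and 2, against 523 and 434 RPKM in Mettl3WT 1 and 2. Both Mettl3KO libraries lay above both Mettl3WT libraries. The ratio was 1.15-fold in pair 1 and 2.90-fold in pair 2, and the fitted log2 change of 0.87 (SE 0.32) did not pass in limma (adjusted p = 0.739). Rps9 ranked 11 among the 85 members by level in Mettl3KO 2 and 56 in Mettl3WT 2, against ranks of 17 and 22 in the Mettl3KO and Mettl3WT libraries of pair 1.

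Rpl29, a eukaryote-specific protein of the large subunit without which mice remain viable (chr9:106428783-106431568, plus strand), was the opposite case. It had 112 and 20.2 RPKM in Mettl3KO 1 and 2, against 111 and 182 RPKM in Mettl3WT 1 and 2. The library Mettl3KO 2 was thus at 11.1% of Mettl3WT 2, while pair 1 was level at 101.0%, and the groups overlapped. The fitted log2 change was -1.55 (SE 0.55, adjusted p = 0.695, limma). With Mettl3KO 1 left out it was -2.76 and was called lower (adjusted p = 0.000203, limma, where 0.468% of all genes were called lower), a call that rests on the single library Mettl3KO 2. Near-identical copies could share reads with Rpl29: Gm8210 had 19.01 RPKM in Mettl3KO 2 and 10.2 RPKM in Mettl3WT 2, Gm13841 had 4.61 and 1.10 RPKM, and Gm6344 had 2.32 and 2.27 RPKM. The value of Rpl29 is uncertain where these copies take its reads, as the handling of reads with several matches is not stated in what was read here.

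Rps2 (chr17:24720063-24721927, plus strand), a protein of the mRNA entry channel, was the member with the lowest fitted change in its subunit. It had 307 and 498 RPKM in Mettl3KO 1 and 2, against 388 and 647 RPKM in Mettl3WT 1 and 2. The log2 ratios of -0.34 and -0.38 were alike in the pairs, but the fitted change of -0.36 (SE 0.24) did not pass in limma (adjusted p = 0.994). Members lower in both pairs also included Rps27l, Rpl7l1 and Rpl7. Rpl7 had 650 and 708 RPKM in Mettl3KO 1 and 2, against 676 and 710 RPKM in Mettl3WT 1 and 2.

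The stalk genes and Rpsa were not alike. Rplp0 anchors the stalk that recruits elongation factors, and Rplp1 and Rplp2 form its arms. Rplp0 had 757 and 861 RPKM in Mettl3KO 1 and 2, against 574 and 973 RPKM in Mettl3WT 1 and 2, which is a log2 ratio of 0.40 in pair 1 and -0.18 in pair 2. Rplp2 had 633 and 1196 RPKM against 552 and 807 RPKM, with ratios of 0.20 and 0.57, and Rplp1, given above, had ratios of 0.12 and 0.76. The anchor and the arms thus lay on opposite sides of 0 in pair 2. Rpsa, which encodes the small-subunit protein also known as the laminin receptor, had 643 and 943 RPKM against 634 and 764 RPKM.

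**Figure D4:**
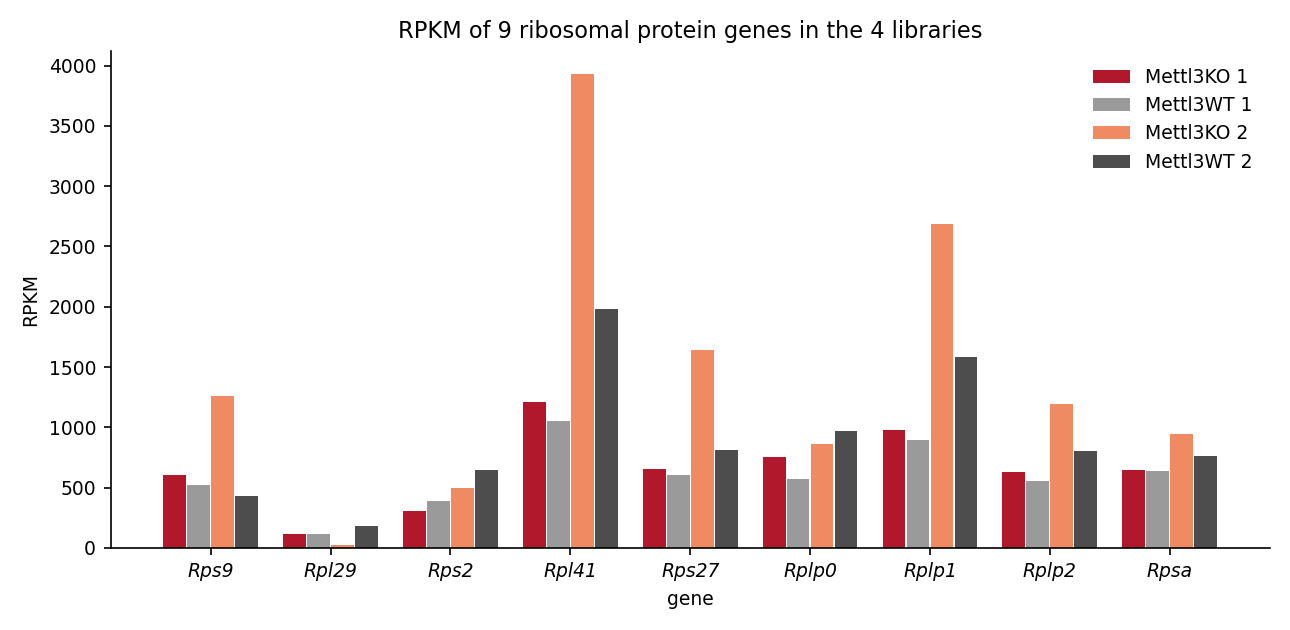
RPKM of 9 ribosomal protein genes in Mettl3KO 1, Mettl3WT 1, Mettl3KO 2 and Mettl3WT 2, 1 bar a library. Rpl41, Rps27, Rplp1, Rplp2 and Rps9 are highest in Mettl3KO 2, Rpl29 is lowest there at 20.2 RPKM, and Rps2 is lower in the Mettl3KO library of each pair.

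Further short members had larger ratios in pair 2 than in pair 1. Rpl39, which lines the exit tunnel, had 462 and 1194 RPKM in Mettl3KO 1 and 2, against 496 and 531 RPKM in Mettl3WT 1 and 2. Rps27, a zinc-finger protein, had 653 and 1641 RPKM against 607 and 812 RPKM. Rps24 had 253 and 594 RPKM against 225 and 296 RPKM, and Rps21 had 473 and 1284 RPKM against 399 and 704 RPKM. In pair 1 their log2 ratios were -0.10 for Rpl39, 0.11 for Rps27, 0.16 for Rps24 and 0.24 for Rps21. In pair 2 they were 1.17, 1.01, 1.00 and 0.87 in the same order. Mutations of human RPS24 cause Diamond-Blackfan anaemia.

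At the other end of the range, Rps6, the substrate of S6 kinase, had 274 and 336 RPKM in Mettl3KO 1 and 2, and 274 and 336 RPKM in Mettl3WT 1 and 2. Rps4x had 545 and 662 RPKM against 589 and 613 RPKM. Rpl4 and Rpl7a, both contacts of the large-subunit rRNA, had 408 and 610 RPKM against 457 and 594 RPKM, and 342 and 529 RPKM against 333 and 560 RPKM. The log2 ratio of these 4 that lay farthest from 0 was -0.16, that of Rpl4 in pair 1. The 4 X-linked members Rps4x, Rpl10, Rpl36a and Rpl39 had log2 ratios from -0.16 to -0.04 in pair 1, where the libraries differed in sex. In pair 2, where the libraries probably differ in sex as well, they ran from 0.11 to 1.17.

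Paralogs were set beside their parents. Rpl39l, which in mouse is best known from testis, had 1.78 and 3.76 RPKM in Mettl3KO 1 and 2, against 0.621 and 1.21 RPKM in Mettl3WT 1 and 2. By estimate these levels stand for about 48.6, 94.4, 17.8 and 31.8 reads in those libraries. The estimate takes the shortest GENCODE mRNA with a RefSeq record, 805 bases, as the gene length, and the length the authors used is not known. Both Mettl3KO libraries were above both Mettl3WT libraries. Rpl39l had the largest fitted change of all members, 0.94 on the log2 scale (SE 0.19), at a limma adjusted p of 0.184. With protein-coding genes alone tested the limma adjusted p was 0.0291 and it was called higher, as were 0.17% of the genes in that fit. Its parent Rpl39, at far higher levels, was at -0.10 in pair 1, so the gene and its paralog differed in sign there.

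Rps27l, a p53-inducible paralog in human cells, had 138 and 188 RPKM against 156 and 217 RPKM, log2 ratios of -0.17 and -0.20, while Rps27 was at 0.11 and 1.01. Rpl7l1 had 30.4 and 31.5 RPKM against 32.7 and 35.7 RPKM, ratios of -0.10 and -0.17, beside -0.06 and -0.005 for Rpl7. Rpl22l1 and Rpl22 went together: 42.2 and 86.8 RPKM against 37.3 and 56.7 RPKM for Rpl22l1, and 88.5 and 157 RPKM against 84.9 and 94.4 RPKM for Rpl22. Rpl36al had 314 and 781 RPKM against 284 and 460 RPKM, and Rpl36a had 194 and 562 RPKM against 217 and 305 RPKM. None of the paralogs or parents passed in the limma fit over all genes.

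The retrocopies were low. Rps27rt had 2.44 and 10.0 RPKM in Mettl3KO 1 and 2, against 2.86 and 3.12 RPKM in Mettl3WT 1 and 2, and is uncertain, since its transcript is near-identical to that of Rps27, which had 607 RPKM or more in every library. Rpl37rt had 1.96 and 1.19 RPKM against 0.560 and 1.18 RPKM. Rps19bp1 had 14.9 and 21.5 RPKM against 12.1 and 20.8 RPKM. Of the 85 members, 58 had a near-identical annotated copy and 31 had one in both tables. Among copies that are not themselves members, the most abundant was Rps3a2, a copy of Rps3a1, with 89.2 and 209.6 RPKM in Mettl3KO 1 and 2, against 90.6 and 203.4 RPKM in Mettl3WT 1 and 2, beside 499 and 545 RPKM against 476 and 504 RPKM for Rps3a1 itself. Reads may be split between these genes, so the values of both are uncertain.

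The remaining members are described by range. Leaving out the 8 that are not standard ribosomal proteins, the 77 others ran from -0.34 to 0.40 in pair 1 and from -3.11 to 1.53 in pair 2, with the middle 50% between -0.02 and 0.12 in pair 1 and between 0.24 and 0.64 in pair 2. Rpl27 was the lowest large-subunit gene of pair 1, at 246 RPKM in Mettl3KO 1 and 310 RPKM in Mettl3WT 1, and was at 553 and 319 RPKM in Mettl3KO 2 and Mettl3WT 2. It was picked out after its values were seen.

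Genes that act with the ribosome were described from lists drawn up by function. Of 4 listed ribosomal protein genes with other names 3 were tested, with median log2 ratios of 0.10 in pair 1 and 0.39 in pair 2. Fau, which encodes a ribosomal protein fused to a ubiquitin-like protein, was higher in both pairs, with 764 and 1304 RPKM against 676 and 991 RPKM. Rack1, the scaffold of the small subunit head, was lower in both, with 271 and 387 RPKM against 298 and 405 RPKM. The 77 mitochondrial ribosomal protein genes had medians of 0.07 and 0.24, and 40 of them (51.9%) were higher in both pairs and 8 (10.4%) lower in both, against 19.1% and 30.8% of all genes.

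Translation elongation factors and other genes with TOP-type mRNAs (21 genes) had a median of -0.08 in pair 1 and one of 0.26 in pair 2, where 16 of 21 were higher in Mettl3KO 2. Tpt1, a classic TOP mRNA, had 1087 and 2694 RPKM in Mettl3KO 1 and 2, against 1124 and 1373 RPKM in Mettl3WT 1 and 2. Eef1a1, which delivers aminoacyl-tRNA, had 2378 and 3534 RPKM against 2536 and 2335 RPKM. At the low end were Eef2, the translocase, with 431 and 404 RPKM against 489 and 542 RPKM, and Eif4a2, a helicase, with 174 and 116 RPKM against 193 and 133 RPKM. Genes of this list lay on both sides of 0 in each pair.

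Initiation factors (23 genes) had medians of -0.10 and -0.05, and ribosome biogenesis genes (45) of -0.10 and -0.01, with 5 (11.1%) higher and 18 (40%) lower in both pairs, against 19.1% and 30.8% of all genes. Among initiation factors the largest fitted changes were those of Eif4ebp1, the inhibitor of Eif4e, at 25.7 and 56.0 RPKM against 21.8 and 34.5 RPKM, and Eif2s2, at 41.8 and 88.4 RPKM against 41.0 and 54.5 RPKM. The smallest were those of Eif4g1, the scaffold of the cap complex, at 40.7 and 20.4 RPKM against 44.7 and 29.5 RPKM, and Eif4h, at 125 and 99.4 RPKM against 120 and 142 RPKM. Biogenesis genes ranged up to Taf1d, of the polymerase I machinery, at 10.1 and 29.3 RPKM against 10.5 and 13.6 RPKM, and Bysl, at 12.2 and 20.9 RPKM against 8.79 and 16.2 RPKM. They ranged down to Rrp9, at 3.62 and 3.39 RPKM against 4.99 and 5.83 RPKM, and Sbds, which readies the large subunit for use, at 69.7 and 42.8 RPKM against 70.4 and 67.5 RPKM.

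Regulators of ribosomal protein synthesis (14 genes) had medians of -0.01 and -0.25, and 6 (42.9%) were lower in both pairs and 0 higher in both, against 30.8% and 19.1% of all genes. Myc, which drives ribosome production, had 1.20 and 1.32 RPKM in Mettl3KO 1 and 2, against 3.02 and 1.75 RPKM in Mettl3WT 1 and 2. Akt1s1, an inhibitor within the mTOR complex, had 12.5 and 12.5 RPKM against 12.2 and 20.9 RPKM. The highest fitted changes were those of Rps6kb1, an S6 kinase, at 3.76 and 4.64 RPKM against 4.13 and 3.24 RPKM, and Larp1, at 41.8 and 30.5 RPKM against 33.4 and 31.8 RPKM. In the limma fit 0 genes of any of these lists were called in either direction, where 0.017% of all genes were called higher and 0.0255% lower.

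**Figure D5:**
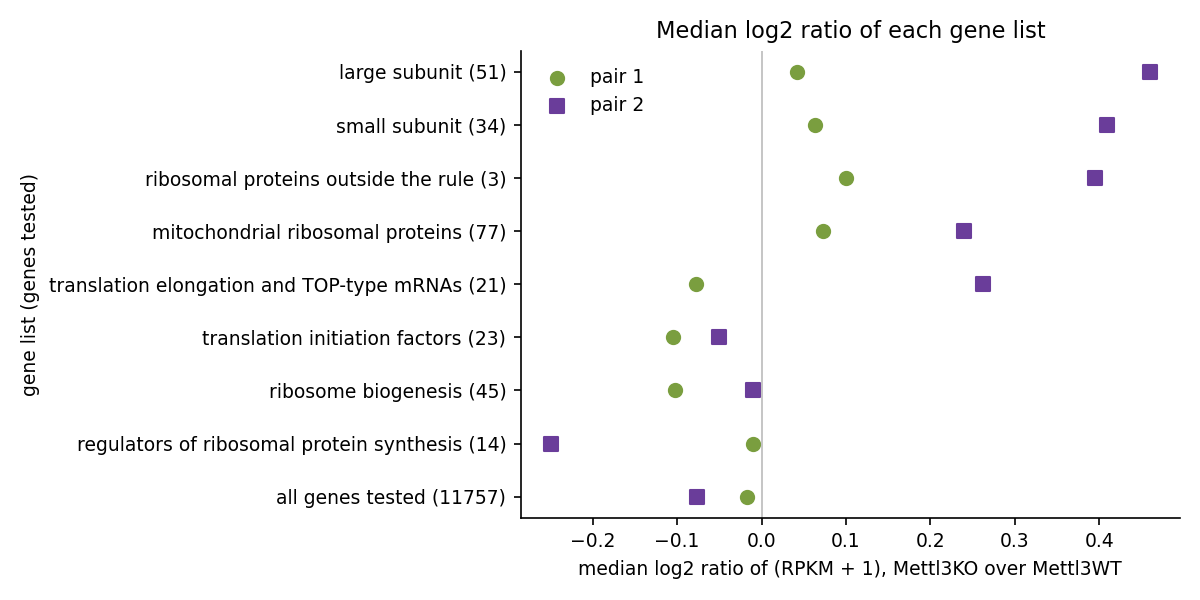
Median log2 ratio of (RPKM + 1), Mettl3KO over Mettl3WT, of each gene list in pair 1 (circles) and pair 2 (squares), with the number of genes tested in brackets. In pair 2 both ribosomal subunits lie at 0.41 to 0.46, the elongation list at 0.26, the mitochondrial ribosomal list at 0.24, and initiation, biogenesis and all genes at or below 0, while in pair 1 the points of the lists plotted lie between -0.10 and 0.10.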

How the data were processed

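RNA-seq values of 4 libraries were analysed. The submitters' processing notes name bcl2fastq, TopHat2 2.0.14, Cuffnorm and the mm10 build, and the authors deposited RPKM per gene in a table for each pair. For annotation, strandedness and multi-mapped reads the rules were not given in the sources read. The second table lists only genes above 1 RPKM in both libraries. The deposited fold change, p-value and q-value columns of the authors' own comparison were not used.

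Tables were joined by symbol, position and strand. Values were analysed as log2(RPKM + 1), which understates the change of low genes, at a mean of at least 1 RPKM. The test was limma 3.58.1 (R 4.3.3) with intensity trend, pair as block and Benjamini-Hochberg adjustment at 0.05, and was tested on simulated data. The block leaves 1 residual degree of freedom, to which 8.68 were added from other genes. Pairing comes from the littermate pairs of the study. Deviations of same-numbered libraries from group means correlated at r = 0.697 across 11757 genes. Any difference between the tables would also give such a correlation, so it cannot show littermate pairing. Library size was read from pseudogene values, of which 95.5% to 98.1% were whole reads within 0.1, against 20% by chance for a single size. The size kept was the one with the highest share among those tried, which the 20% does not allow for. In pair 2 the share rested on 37 pseudogenes in Mettl3KO 2 and 52 in Mettl3WT 2. Coding length was the longest coding sequence in GENCODE, and near-identical copies shared 95% identity over at least 50% of a transcript (BLAST 2.17.0).

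Members, gene lists and tests were chosen with earlier results of these data known. Genes named with values were the 5 largest and 5 smallest fitted changes in each subunit, the 3 highest levels in each and the 5 lowest over both, Rplp0, Rplp1, Rplp2 and Rpsa, paralogs with their parents, members 1.5-fold apart in the same direction in both pairs, and members with the other sign than the median in pair 2; of each list, the 2 largest and 2 smallest fitted changes. Alternatives were other pseudocounts, filters, scalings, fits without block or trend, and leaving out each library in fits without the block. Some genes that these rules select are not reported here.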

Additional observations from a re-analysis of the deposited data

How the results depend on the processing

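The medians of the members in each pair, and the difference between the subunits, moved by less than the spread between the pairs under every scaling, filter and pseudocount run. The pair 2 median lay between 0.18 (quantile normalisation) and 0.56 (libraries centred on their medians). Each pair held a single library of each group, and the fit left 1 residual degree of freedom. Low members such as Rpl39l rested on an estimated number of fewer than 100 reads in each library.

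The 5 calls over all genes became 0 with no replicate block (which changed no call among the members), 1 at a pseudocount of 0.1 RPKM, 1 with libraries centred on their medians, 1 after quantile normalisation and 42 with protein-coding genes alone, where 1 member, Rpl39l, was called higher. Without each library in turn they ranged from 1 to 118, members called higher from 0 to 0, members called lower from 0 to 1, and the members' median fitted log2 change from -0.21 to 0.72. The 118 calls came without Mettl3KO replicate 1 and 27 without Mettl3KO replicate 2. The cause was not tested.

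Fitted log2 changes near 0 turned sign under some scalings. Quantile normalisation gave -0.089 for Rpl10, -0.091 for Rplp0, -0.051 for Rps6 and -0.074 for Rpsa. Centring on the median gave 0.024 for Rpl7, 0.032 for Rpl7a and 0.054 for Rps4x, and rescaling without mitochondrial transcripts gave 0.012 for Rps4x. Fits that left out a library had no pair block and set libraries of different tables against each other. Their ranges therefore include the difference between the tables and do not measure the change within a pair. Leaving out each library in turn gave ranges that crossed 0 for 26 of the 31 members chosen by the naming rule and reported: -0.24 to 0.37 for Rpl10, -0.015 to 0.80 for Rpl22, -0.12 to 0.90 for Rpl22l1, -0.41 to 1.12 for Rpl36a, -0.20 to 1.11 for Rpl36al, -0.15 to 1.22 for Rpl39, -0.35 to 0.23 for Rpl4, -0.26 to 1.44 for Rpl41, -0.093 to 0.031 for Rpl7, -0.40 to 0.35 for Rpl7a, -0.27 to 0.49 for Rplp0, -0.29 to 1.17 for Rplp1, -0.076 to 0.84 for Rplp2, -0.21 to 0.53 for Rps19bp1, -0.72 to 0.011 for Rps2, -0.16 to 1.27 for Rps21, -0.051 to 1.06 for Rps23, -0.031 to 1.20 for Rps24, -0.30 to 0.73 for Rps26, -0.10 to 1.22 for Rps27, -0.42 to 0.047 for Rps27l, -0.21 to 1.47 for Rps27rt, -0.22 to 1.19 for Rps29, -0.14 to 0.14 for Rps4x, -0.15 to 0.15 for Rps6 and -0.11 to 0.44 for Rpsa.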
